A study of Mus musculus with 8 samples.

Results

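The genes described here are 10 that break down tryptophan or make and use NAD, the redox cofactor and signalling substrate: Ido1, Kynu, Afmid, Qprt, Naprt, Nampt, Nadsyn1, Cd38, Bst1 and Nnmt. They were chosen by symbol for their place in the pathway, with earlier results of these data known. Each was found once among the 55487 genes of the table. Of the 10 genes, 6 reached 1 TPM (transcript abundance per length, scaled to a fixed sum per library) in at least 4 of the 8 libraries and were tested. Kynu, Qprt, Bst1 and Nnmt did not. RNA had been sequenced from intestinal epithelial cells of the colon, in 4 libraries from wild type (WT) C57BL/6J mice and 4 from C57BL/6J mice labelled PIM1+/-, a heterozygous genotype of the kinase gene Pim1. The design compares the genotypes. The sources used here give neither age nor sex, nor any treatment, nor the structure of the Pim1 allele. The labels do not say that each library came from its own mouse, so the p-values cover only library-to-library spread, which may be technical.

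Mammals make NAD along several routes. In the kynurenine route, IDO1 opens the tryptophan ring, AFMID and KYNU act further down, and QPRT turns the quinolinate that results into a nucleotide. In the nicotinic acid route, NAPRT turns nicotinic acid into a nucleotide. NADSYN1 adds the last amide group for this route and for the kynurenine route. In the salvage route NAMPT recycles nicotinamide. CD38 and BST1 consume NAD at cell surfaces and release nicotinamide, which NNMT can remove by methylation. In the gut, IDO1 is known as an interferon-induced enzyme of epithelial and myeloid cells.

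The table keeps no read depth, so the precision that depth would give is unknown. Each library had 12582 to 12850 genes at 1 TPM or more, and no libraries held identical values. The Pim1 transcript did not separate the genotypes, at 5.72 to 8.83 TPM in WT and 5.64 to 7.97 TPM in PIM1+/- libraries (limma adjusted p = 0.411), so it gives no check of the labels. All 10 epithelial markers were present. By limma 7 were called higher in PIM1+/- libraries and 0 lower, also at an unadjusted p under 0.05. Of all tested genes 8.93% were called higher. With libraries rescaled to nuclear protein-coding genes Krt8, Krt18, Krt19 and Cldn7 lost their calls (limma adjusted p 0.0645 to 0.425). They also lost them when certain single libraries were left out. The summed level of the 10 was 14350 to 15410 TPM in WT and 16090 to 17080 TPM in PIM1+/- libraries. That of all nuclear protein-coding genes was 653189 to 683178 TPM in WT and 722016 to 747193 TPM in PIM1+/- libraries. The summed level of 8 posterior Hox genes, which mark position along the gut, was 148 to 195 TPM in WT and 40.8 to 93.9 TPM in PIM1+/- libraries. Of these 5 were tested, 0 were higher (limma, also 0 at an unadjusted p under 0.05) and 3 were lower: Hoxb13 (-1.27), Hoxd13 (-1.10) and Hoxa13 (-0.74). Without WT replicate 3 or 4 only Hoxb13 was called.

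Of the 6 tested genes, Ido1 and Nampt were higher in PIM1+/- libraries, 0 were lower, and Afmid, Naprt, Nadsyn1 and Cd38 did not pass the test. At an unadjusted limma p under 0.05 the counts were also 2 and 0. Of all 12760 tested genes, 4132 were under that level in either direction, the background for all unadjusted counts given here. Over all 12760 tested genes 17.5% were called at an adjusted p under 0.05, 8.93% as higher (1139 genes) and 8.54% as lower (1090 genes). Both called genes also had groups that did not overlap, a property of 23.5% of all tested genes. The median log2 fold change was 0.06 over the 6 tested genes and -0.01 over all tested genes. The former moved to -0.01 when WT replicate 1 was left out, to 0.12 when WT replicate 2 was, and to -0.05 with libraries rescaled to nuclear protein-coding genes. With that rescaling the median of all genes moved to -0.12 and the share of called genes that were higher fell from 51.1% to 22.7%. With upper quartile scaling the share was 37.8%. Without WT replicate 4, 746 genes were higher and 689 lower. Without WT replicate 1 or 3, 616 and 690 were lower. The same 2 member genes were called in each of these fits.

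**Figure D1:**
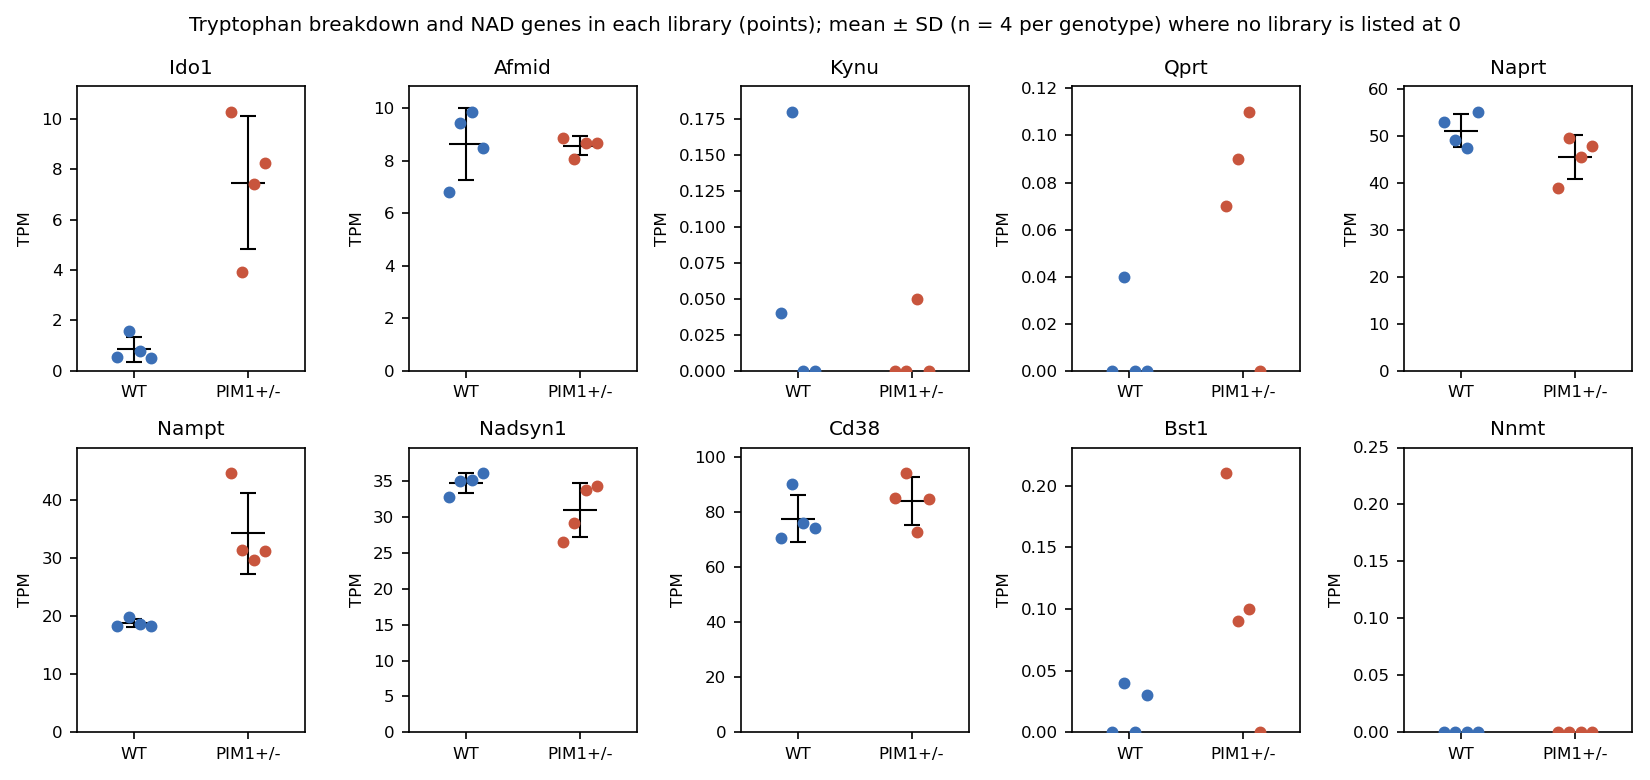
TPM (vertical axes, each from 0) of the 10 genes in every library, WT in blue and PIM1+/- in red, with mean ± SD (n = 4 per genotype) where no library is listed at 0. Ido1 and Nampt separate the genotypes, Nnmt is at 0 throughout, and Kynu, Qprt and Bst1 stay at or under 0.21 TPM.

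Ido1, the enzyme that opens the kynurenine route, showed the largest change among the 6 tested genes. Ido1 (ENSMUSG00000031551, chromosome 8, 24584136 to 24597009, minus strand, GRCm38) measured 0.54, 1.57, 0.77 and 0.53 TPM in the WT libraries, in the order of replicates 1 to 4, in which all values of single libraries are given here. In the PIM1+/- libraries it measured 10.27, 3.93, 7.43 and 8.24 TPM. The lowest PIM1+/- library, replicate 2, was above the highest WT library, which was also replicate 2. The means were 0.853 ± 0.491 TPM in WT and 7.47 ± 2.64 TPM in PIM1+/- libraries (SD, n = 4 each), a ratio of 8.76. Computed from log2(TPM + 1), where low genes show less than their full change, the log2 fold change of Ido1 came to 2.16 ± 0.26 (SE; 95% interval 1.57 to 2.76; limma adjusted p = 0.00104). Ido1 reached 1 TPM in 4 PIM1+/- libraries and in 1 WT library, so it was tested because of the genotype in which it was high. With a pseudocount of 0.1 in place of 1 the log2 fold change was 3.03.

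Transcripts of other cells differed between the same libraries as Ido1. Of 12 T and NK cell markers 9 were tested and 8 were higher in PIM1+/- libraries. Of these 8, 4 were under 1 TPM in at least 1 WT library and passed the filter with the help of the PIM1+/- libraries. The summed level of the 12 was 13.2 to 26.6 TPM in WT and 47.1 to 112 TPM in PIM1+/- libraries. Of 13 markers of macrophages, dendritic cells and granulocytes 4 were tested and 1 (C1qa, which also passed through the PIM1+/- libraries) was higher, with sums of 3.08 to 6.95 and 11.8 to 13.6 TPM, and S100a9 was at 0 in every library. C1qa, a large part of that sum in PIM1+/- replicates 1 to 3, was at 0.46, 0.49, 0.25 and 1.05 TPM in WT. In the PIM1+/- libraries it was at 5.19, 7.54, 5.27 and 1.22 TPM. C1qb and C1qc stayed under the filter. Of the markers of B and plasma cells, fibroblasts and endothelium 5 were tested and 0 were called by limma, also at an unadjusted p under 0.05, with sums of at most 15.46 TPM per list. Those of smooth muscle stayed under the filter. Their sums reached 28.48 TPM in WT libraries, nearly all of it from Lmod1 (12.34, 26.99, 0.02 and 14.07 TPM in WT and 0 in every PIM1+/- library), while the other 6 were at most 1.11 TPM. The part of these transcripts in the Ido1 result, and that of the posterior Hox difference, was not tested. In a bulk library, more cells of a type and more RNA per cell cannot be told apart.

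Within the PIM1+/- group, the order of Ido1 differed from that of the T and NK cell sum. Replicate 1 had the highest Ido1 (10.27 TPM) with a T and NK cell sum of 67.9 TPM, and replicate 4 had 8.24 TPM of Ido1 with the highest sum, 112 TPM. Replicate 2 was the lowest in both, with a sum of 47.1 TPM. Single markers of the sum differed in order. Gzma (16.86, 6.91, 9.12 and 12.59 TPM) ranked the PIM1+/- libraries as Ido1 did. Ccl5 (20.96, 17.2, 40.07 and 51.5 TPM) ranked them as the sum did. Whether Ido1 followed the level of these cells was not tested. The WT library with the highest Ido1, replicate 2, had a sum of 22.7 TPM, below WT replicates 1 and 4 at 25.6 and 26.6 TPM.

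**Figure D2:**
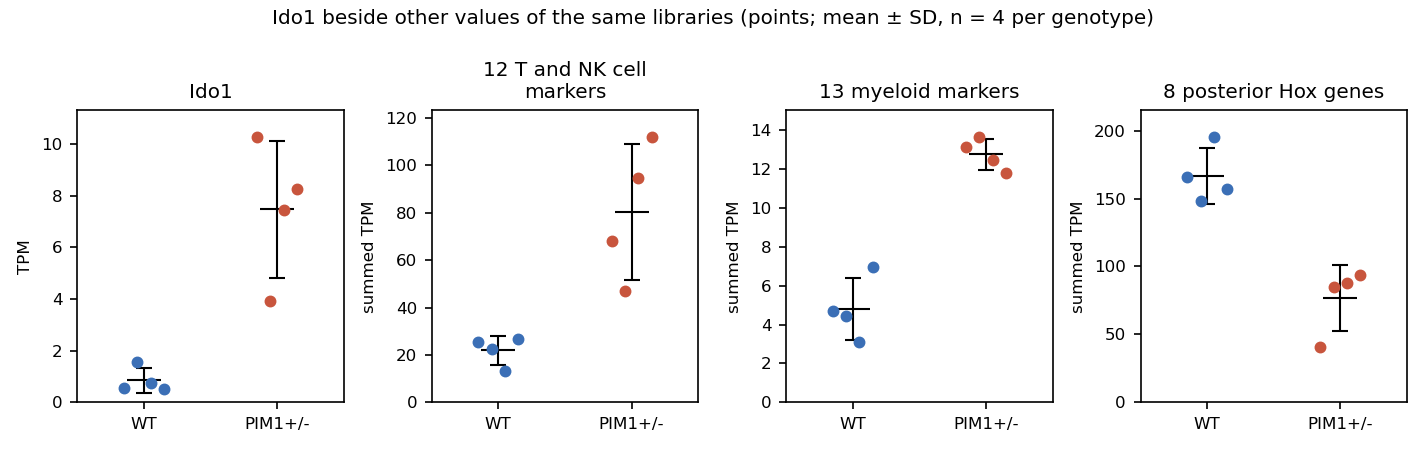
TPM of Ido1 and summed TPM of the T and NK cell markers, the myeloid markers and the posterior Hox genes (vertical axes) in each library, with mean ± SD, n = 4 per genotype. The genotypes do not overlap in any of the 4 panels, and the Hox panel runs in the opposite direction to the others.

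By a measure of likeness over the 8 libraries (the root-mean-square difference of log2(TPM + 1), each gene centred on its own mean), the genes most like Ido1 included Tap1 (0.254) and Irgm2 (0.279), where 0 is an identical pattern. The measure includes the difference between the genotypes, so it favours genes of like fold change. The log2 fold changes were 2.28 for Tap1 and 2.21 for Irgm2. Tap1 encodes part of the transporter that moves peptides for antigen presentation, and Irgm2 is an interferon-induced GTPase gene.

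Of 9 genes of interferon-gamma signalling 8 were tested, 4 were higher, 1 was lower and the median log2 fold change was 0.33. Irf9, Irf1 and Irf8, transcription factors of interferon responses, had log2 fold changes of 1.55 ± 0.10 (limma adjusted p = 3.45e-05), 0.51 ± 0.08 (0.00293) and 0.46 ± 0.07 (0.00425). Socs1, an inhibitor of cytokine signalling, was the other higher gene (0.56 ± 0.16, adjusted p = 0.044), and its call was lost without any 1 of the 8 libraries (adjusted p 0.0505 to 0.101). Ifngr1, a chain of the interferon-gamma receptor, was lower (-0.18 ± 0.05, adjusted p = 0.0276), and its call was lost when WT replicate 1, 2 or 4 was left out, and when PIM1+/- replicate 2 or 4 was (adjusted p 0.0524 to 0.086). Ifng itself stayed under the filter on low values.

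Among the members that act after Ido1 in the kynurenine route, Afmid did not pass the test and Kynu and Qprt were near 0. Afmid, the formamidase that frees kynurenine (ENSMUSG00000017718, chromosome 11, 117825924 to 117839908, plus strand), measured 6.80, 9.43, 9.87 and 8.48 TPM in WT and 8.89, 8.08, 8.70 and 8.68 TPM in the PIM1+/- libraries. The PIM1+/- libraries lay within the WT range, and the log2 fold change of Afmid came to 0.0021 ± 0.11 (95% interval -0.24 to 0.25; limma adjusted p = 0.993). Its sign differed between fits, at -0.10 with libraries rescaled to nuclear protein-coding genes. Exons of Afmid share 1566 bases with Gm20708 on the same strand, which was at 0 to 0.78 TPM, and 83 bases with Tk1 on the opposite strand, which was at 26.58 to 36.11 TPM. The sources used here do not give the strand setting of the counting, so reads of the shared bases may have been divided between these genes.

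Kynu, the kynureninase that cuts kynurenine derivatives (ENSMUSG00000026866, chromosome 2, 43555329 to 43682715, plus strand), measured 0.04, 0.18, 0 and 0 TPM in WT and 0, 0, 0.05 and 0 TPM in the PIM1+/- libraries. It was listed at 0 in 5 of the 8 libraries, and the groups overlapped (two-sided exact permutation p = 0.714). Qprt, which makes the nicotinic acid nucleotide from quinolinate (ENSMUSG00000030674, chromosome 7, 127107114 to 127122226, minus strand), measured 0, 0.04, 0 and 0 TPM in WT and 0.07, 0.09, 0.11 and 0 TPM in the PIM1+/- libraries. Of the PIM1+/- libraries 3 were above every WT library, and the exact permutation p was 0.143. With 4 libraries against 4 the smallest two-sided p such a test can give is 0.0286.

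Of the 9 other enzymes of the kynurenine pathway 3 were tested, 0 were higher, 1 was lower (limma, 0 and 2 at an unadjusted p under 0.05) and the median log2 fold change was -0.39. Tdo2, Ido2, Kmo, Haao and Acmsd, which cover the other ring-opening enzymes and the steps toward and away from quinolinate, stayed under the filter, and Aadat was at 0 in every library. Kyat1, a transaminase that makes kynurenic acid, measured 30.45, 22.46, 27.06 and 25.87 TPM in WT and 15.31, 18.79, 22.63 and 17.71 TPM in the PIM1+/- libraries. PIM1+/- replicate 3 was the only PIM1+/- library above the lowest WT library, and the log2 fold change was -0.49 ± 0.12 (limma adjusted p = 0.0267). The Kyat1 call was lost when WT replicate 1, 3 or 4 was left out, and when PIM1+/- replicate 1, 2 or 4 was (adjusted p 0.0552 to 0.0733).

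Of 12 genes for other fates and the uptake of tryptophan 9 were tested, 2 were higher and 3 were lower. The counts were 4 and 4 at an unadjusted limma p under 0.05, and the median log2 fold change was -0.29. Ddc, the decarboxylase that completes serotonin synthesis, measured 51.43, 47.50, 62.40 and 48.04 TPM in WT and 22.42, 26.36, 30.46 and 39.29 TPM in the PIM1+/- libraries. The groups did not overlap (log2 fold change -0.82 ± 0.16, limma adjusted p = 0.00863). Maob, a monoamine oxidase, was at 21.3 ± 4.10 TPM in WT and 11.6 ± 0.621 TPM in PIM1+/- libraries (SD, n = 4 each; -0.81 ± 0.12, adjusted p = 0.00312). Maoa, the other monoamine oxidase of the list, had the higher mean in PIM1+/- libraries, 305.5 ± 35.1 TPM against 259.2 ± 6.77 TPM in WT. It was not called (0.23 ± 0.08, limma adjusted p = 0.081). Of the alternative fits, only that without PIM1+/- replicate 4 called it higher (0.31, adjusted p = 0.00553). Wars, which charges the tryptophan transfer RNA, rose from 63.7 ± 8.08 to 85.1 ± 6.33 TPM (0.42 ± 0.09, adjusted p = 0.0144).

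Both amino acid transporters called in that list lost their calls when certain single libraries were left out. Slc7a8, at 2.96 ± 0.430 TPM in WT and 1.72 ± 0.395 TPM in PIM1+/- libraries, was called lower (-0.55 ± 0.14, limma adjusted p = 0.0275), and the call was lost when WT replicate 1 or 4 was left out, and when PIM1+/- replicate 1 or 2 was (0.0668 to 0.0788). Slc7a5 measured 3.78, 3.64, 2.62 and 3.58 TPM in WT and 11.24, 7.92, 5.28 and 4.38 TPM in the PIM1+/- libraries, and was called higher (0.83 ± 0.24, adjusted p = 0.0418). That call was lost without any 1 of the WT libraries or without PIM1+/- replicate 1 or 2 (0.0656 to 0.101).

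Nampt, the rate-limiting enzyme of nicotinamide salvage, was higher in every PIM1+/- library than in every WT library. Nampt (ENSMUSG00000020572, chromosome 12, 32819545 to 32853349, plus strand) has the following promoter window in RefSeq on GRCm38.p6, chr12:32820085-32820384 on the plus strand, shown because Nampt is the called gene for which the RefSeq promoter table gave a sequence. Capitals mark the 50 bases from the annotated start, after 250 bases before it. This RefSeq start lies 790 bases inside the gene as GENCODE gives it, so the window does not reach the GENCODE start.
Nampt: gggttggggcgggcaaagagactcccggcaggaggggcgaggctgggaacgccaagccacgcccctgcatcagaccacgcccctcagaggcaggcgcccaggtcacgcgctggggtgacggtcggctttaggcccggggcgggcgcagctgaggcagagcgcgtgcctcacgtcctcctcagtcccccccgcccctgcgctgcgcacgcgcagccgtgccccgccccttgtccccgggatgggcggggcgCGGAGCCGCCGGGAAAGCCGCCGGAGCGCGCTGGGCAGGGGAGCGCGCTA
The window is 76.3% G and C, where the median of all promoters in the table was 52.7%. It was searched on both strands for a core of the interferon-stimulated response element (GAAA, any 2 bases, GAAA) and for the interferon-gamma activated site (TTC, any 3 bases, GAA). Neither was found in these 300 bases. Of 32851 promoter windows of the same length 3.44% held the first and 8.3% the second. The table held 5 of the 10 genes (Afmid, Qprt, Nampt, Nadsyn1 and Cd38). Ido1, Kynu, Naprt, Bst1 and Nnmt were not matched in it.

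Nampt measured 18.31, 19.81, 18.68 and 18.34 TPM in the WT libraries and 44.52, 31.38, 29.70 and 31.21 TPM in the PIM1+/- libraries. The WT libraries lay within 1.5 TPM of each other, while PIM1+/- replicate 1 stood above the other PIM1+/- libraries. The means were 18.8 ± 0.704 and 34.2 ± 6.92 TPM (SD, n = 4 each), a ratio of 1.82, and the log2 fold change came to 0.81 ± 0.12 (SE; 95% interval 0.55 to 1.08; limma adjusted p = 0.00252). Without PIM1+/- replicate 1 it was 0.68 (adjusted p = 0.00037). PIM1+/- replicate 1 also had the lowest posterior Hox sum (40.8 TPM). The part of other cells' transcripts in the Nampt result was not tested.

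The tested genes whose pattern was most like that of Nampt were Ehd4 (root-mean-square difference 0.066), Eif2ak2 (0.07) and Adar (0.078). This measure again favours genes of like fold change, and theirs were 0.77, 0.90 and 0.91 on the log2 scale. Eif2ak2 encodes a kinase and Adar an RNA-editing enzyme, both of which act on double-stranded RNA. The mean levels were 17.3 TPM in WT and 33.5 TPM in PIM1+/- libraries for Eif2ak2, and 24.7 and 47.7 TPM for Adar.

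Naprt and Nadsyn1, the enzymes of the nicotinic acid route, had lower means in PIM1+/- libraries, but neither passed the test. Naprt (ENSMUSG00000022574, chromosome 15, 75890956 to 75894481, minus strand) measured 52.93, 49.04, 47.45 and 55.11 TPM in WT and 38.84, 49.62, 45.62 and 47.90 TPM in the PIM1+/- libraries. PIM1+/- replicates 2 and 4 lay within the WT range. The log2 fold change of Naprt came to -0.17 ± 0.08 (95% interval -0.36 to 0.02; limma adjusted p = 0.205), and to -0.10 without PIM1+/- replicate 1 (adjusted p = 0.402). Exons of Naprt share 277 bases with Eef1d on the same strand, which was at 119.79 to 138.76 TPM, so reads there may have been divided between them.

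Nadsyn1 (ENSMUSG00000031090, chromosome 7, 143795584 to 143822849, minus strand) measured 32.77, 35.0, 35.10 and 36.02 TPM in WT and 26.47, 29.18, 33.78 and 34.27 TPM in the PIM1+/- libraries. PIM1+/- replicates 1 and 2 were below every WT library and replicates 3 and 4 were within the WT range. The log2 fold change of Nadsyn1 came to -0.17 ± 0.09 (95% interval -0.36 to 0.03; limma adjusted p = 0.213), and to -0.10 without PIM1+/- replicate 1 (adjusted p = 0.422). With libraries rescaled to nuclear protein-coding genes, where the median of all genes was -0.12, the log2 fold changes of Naprt and Nadsyn1 were -0.29 (0.0557) and -0.28 (0.0536).

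The 3 enzymes that make the first nucleotide of each route were set side by side within each library. Nampt made up 25.7%, 28.8%, 28.2% and 25.0% of the summed TPM of Nampt, Naprt and Qprt in WT replicates 1 to 4. In PIM1+/- replicates 1 to 4 it made up 53.4%, 38.7%, 39.4% and 39.5%. Naprt was the larger of the pair in every WT library and in PIM1+/- replicates 2 to 4, and Nampt was the larger in PIM1+/- replicate 1. The ratio of Nampt to Naprt TPM was 0.333 to 0.404 in WT and 0.632 to 1.15 in PIM1+/- libraries. Qprt took at most 0.146%. These shares rest on the same values as the test of Nampt, and they are given without a test of their own.

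**Figure D3:**
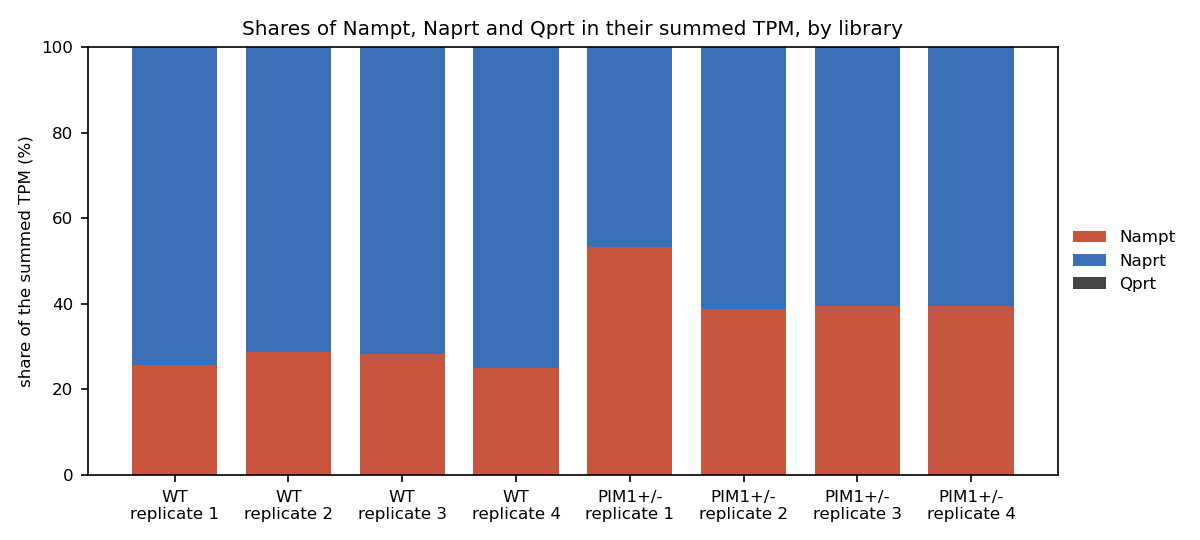
Share (%, vertical axis) of Nampt, Naprt and Qprt in their summed TPM in each library (horizontal axis). Nampt takes 25.0% to 28.8% in WT and 38.7% to 53.4% in PIM1+/- libraries, and the Qprt share is too small to be seen.

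Of 11 other NAD synthesis genes 9 were tested, 2 were higher, 1 was lower and the median log2 fold change was -0.05. Nadk, the kinase that turns NAD into NADP, measured 103.35, 104.07, 100.34 and 98.29 TPM in WT and 144.51, 134.97, 130.81 and 122.18 TPM in the PIM1+/- libraries. Its groups did not overlap (log2 fold change 0.39 ± 0.06, limma adjusted p = 0.00293). Nmnat3, an adenylyltransferase that joins the nucleotide to ATP, fell from 8.03 ± 0.664 to 5.07 ± 0.328 TPM (SD, n = 4 each; -0.57 ± 0.09, adjusted p = 0.0032). Pnp, a phosphorylase of nucleosides, rose from 51.5 ± 3.33 to 67.9 ± 7.86 TPM (0.39 ± 0.08, adjusted p = 0.0148). Pnp2, a closely similar neighbour of Pnp in the mouse, was at 22.84 to 27.86 TPM in WT and 37.95 to 43.32 TPM in PIM1+/- libraries, and how reads were divided between the pair is uncertain. Nmrk2, a kinase of nicotinamide riboside, was at 0 in every library.

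Cd38, an ectoenzyme that hydrolyses NAD, was the most abundant of the 10 genes in every library, and it was not called. Cd38 (ENSMUSG00000029084, chromosome 5, 43868553 to 43912375, plus strand) measured 70.48, 90.19, 75.98 and 74.20 TPM in WT and 85.36, 94.13, 72.88 and 84.74 TPM in the PIM1+/- libraries. Of the PIM1+/- libraries 3 lay within the WT range and replicate 2 was above it. The log2 fold change of Cd38 came to 0.12 ± 0.10 (95% interval -0.10 to 0.33; limma adjusted p = 0.44), and -0.0015 with libraries rescaled to nuclear protein-coding genes. The ratio of Cd38 to Nampt TPM was 3.85 to 4.55 in WT and 1.92 to 3.0 in PIM1+/- libraries.

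Bst1, the related ectoenzyme whose gene ends 24566 bases before Cd38 (ENSMUSG00000029082, chromosome 5, 43818885 to 43843986, plus strand), measured 0, 0.04, 0 and 0.03 TPM in WT and 0.21, 0.09, 0.10 and 0 TPM in the PIM1+/- libraries. PIM1+/- replicates 1 to 3 were above every WT library and replicate 4 was at 0 (exact permutation p = 0.143). Its exons share 98 bases with Fbxl5 on the opposite strand, which was at 29.79 to 36.42 TPM. The strand setting of the counting is not given, so reads of the shared bases may have been divided between Bst1 and Fbxl5. Cd38 and Bst1 differed in level within every library, with Cd38 at 70.48 TPM or more and Bst1 at 0.21 TPM or less.

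Of 12 sirtuins and other NAD consumers 11 were tested, 0 were higher, 1 was lower (limma, 0 and 4 at an unadjusted p under 0.05) and the median log2 fold change was -0.14. Parp1, which builds ADP-ribose chains at DNA breaks, measured 16.68, 16.92, 17.86 and 17.20 TPM in WT and 13.79, 13.40, 14.45 and 14.05 TPM in the PIM1+/- libraries. The groups did not overlap, and the log2 fold change was -0.28 ± 0.06 (limma adjusted p = 0.0128). Without PIM1+/- replicate 3, Sirt7 was lower as well (-0.29, adjusted p = 0.0429). With libraries rescaled to nuclear protein-coding genes 5 of the 11 were lower, the others being Sirt1, Sirt2, Sirt6 and Sirt7. Over all genes, 2391 of 12764 were lower with that rescaling, against 1090 of 12760 without it. The median log2 fold change of all genes moved to -0.12.

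Further PARP family genes were listed, most of whose products attach single ADP-ribose units taken from NAD. Of these 10 genes 9 were tested, 6 were higher, 0 were lower (limma, 7 and 0 at an unadjusted p under 0.05) and the median log2 fold change was 0.80. Parp14 measured 10.34, 12.97, 9.32 and 12.84 TPM in WT and 46.68, 36.81, 30.58 and 33.93 TPM in the PIM1+/- libraries (1.61 ± 0.14, limma adjusted p = 0.000172). Parp9 measured 18.35, 23.71, 17.37 and 21.28 TPM in WT and 64.83, 59.27, 49.28 and 53.43 TPM in the PIM1+/- libraries (1.45 ± 0.11, adjusted p = 8.51e-05). In both genes PIM1+/- replicate 1 was the highest library and the groups were well apart. Parp12 (0.84 ± 0.08, adjusted p = 0.000306), Parp3 (0.80 ± 0.10, 0.00119), Parp11 (1.03 ± 0.14, 0.00155) and Parp10 (0.56 ± 0.10, 0.00734) were the other higher genes. All 6 kept their calls in each of the 15 alternative fits.

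Nnmt, which methylates nicotinamide (ENSMUSG00000032271, chromosome 9, 48591877 to 48605153, minus strand), was listed at 0 in all 8 libraries, so no change could be measured. Of 10 genes of the methyl donor cycle and of nicotinamide oxidation 6 were tested, 0 were higher, 1 was lower (limma, 1 and 1 at an unadjusted p under 0.05) and the median log2 fold change was -0.11. Ahcy, which removes the product of methylation reactions, fell from 155.6 ± 6.05 to 136.5 ± 6.79 TPM (SD, n = 4 each; -0.19 ± 0.05, limma adjusted p = 0.038). The Ahcy call was lost without any 1 library other than WT replicate 2 and PIM1+/- replicate 4 (adjusted p 0.0539 to 0.106). Without PIM1+/- replicate 2, Mat2a, which makes the methyl donor, was higher (0.23, adjusted p = 0.0406).

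Kynurenine is a known ligand of the aryl hydrocarbon receptor, and 7 genes of that receptor's pathway were listed. Of these 3 were tested and 0 were called (median log2 fold change -0.13; limma, 1 higher and 1 lower at an unadjusted p under 0.05). Nqo1, a quinone reductase, measured 48.47, 49.17, 44.53 and 47.95 TPM in WT and 56.02, 52.47, 52.32 and 48.85 TPM in the PIM1+/- libraries (0.14 ± 0.06, adjusted p = 0.142). Arnt, the dimer partner of the receptor, measured 19.26, 17.11, 17.74 and 17.47 TPM in WT and 16.57, 16.29, 15.19 and 15.46 TPM in the PIM1+/- libraries (-0.16 ± 0.065, adjusted p = 0.119). It was called lower with upper quartile scaling (-0.21, adjusted p = 0.0453) and with libraries rescaled to nuclear protein-coding genes (-0.27, 0.0149). The classical target Cyp1a2 was at 0 in every library, and Cyp1a1 and Cyp1b1 stayed under the filter on low values.

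**Figure D4:**
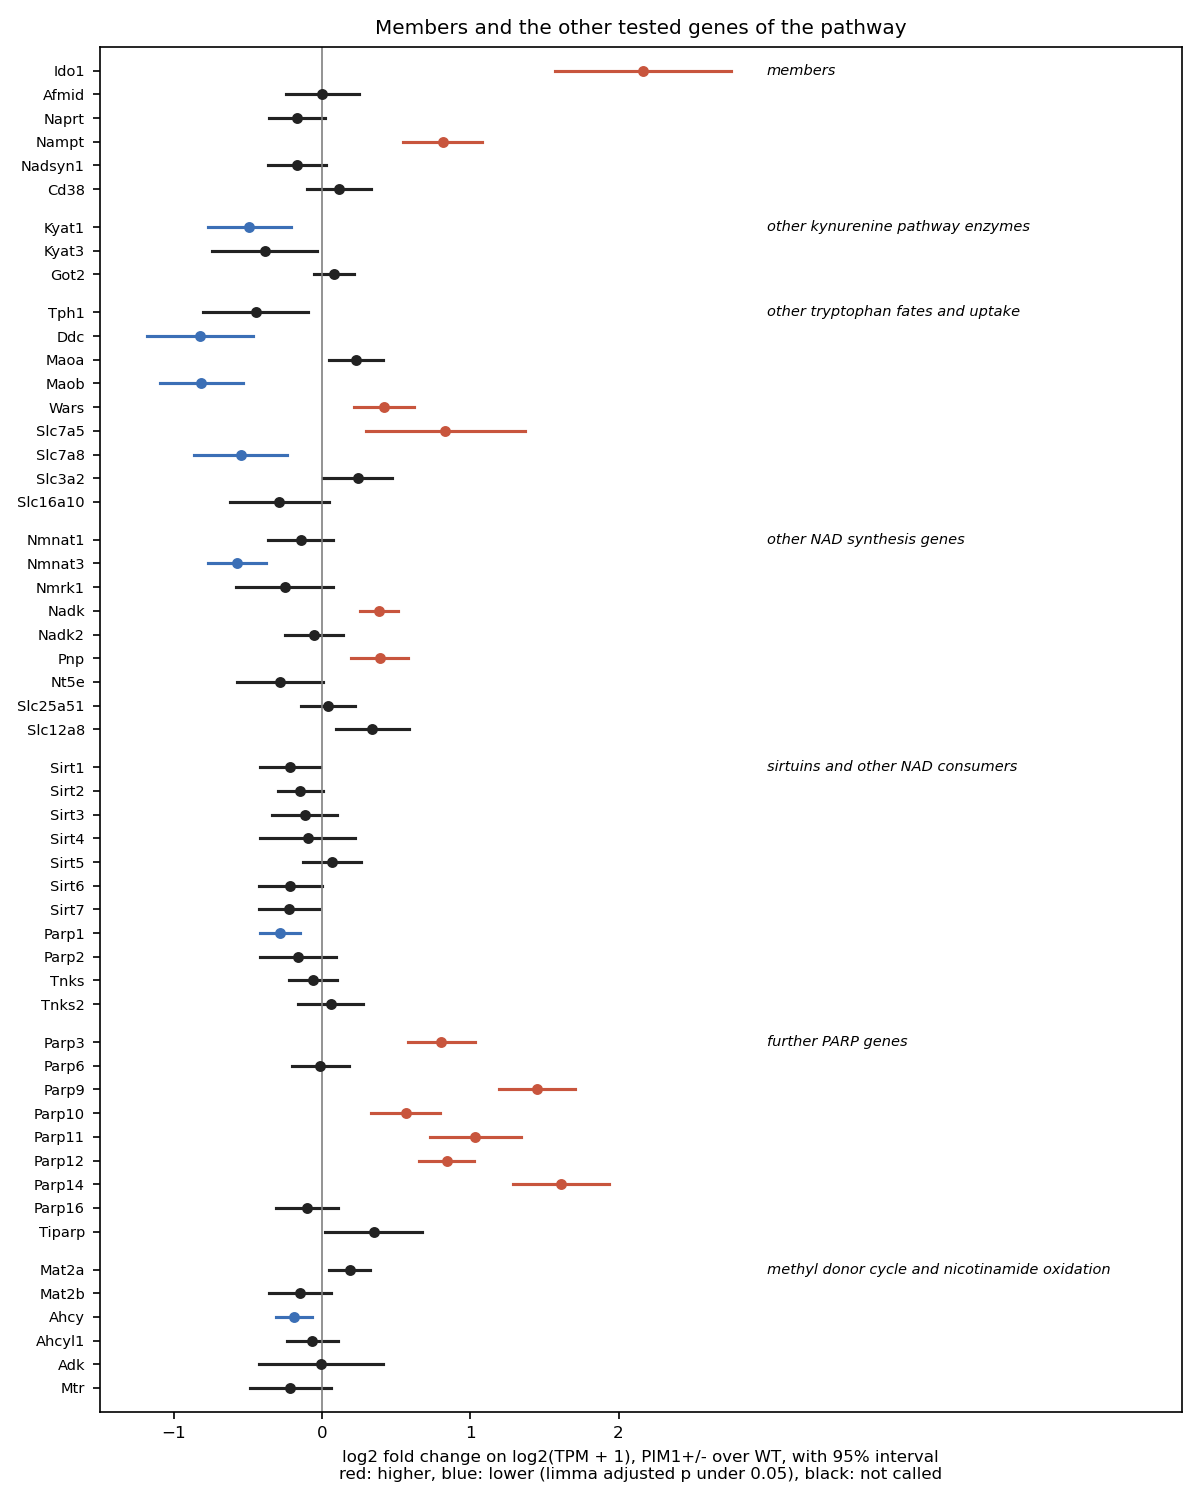
Log2 fold change on log2(TPM + 1), PIM1+/- over WT (horizontal axis), with its 95% interval, for the 6 tested genes and the tested genes of the pathway lists (rows), red where higher, blue where lower and black where not called. Ido1 (2.16) and Nampt (0.81) stand above 0, and 6 of the 9 further PARP genes were called higher.

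The order of levels differed in clarity between the genotypes. In WT libraries the ranges of Cd38, Naprt, Nadsyn1, Nampt, Afmid and Ido1, from the highest down, did not overlap between neighbours. In PIM1+/- libraries the range of Nampt (29.70 to 44.52 TPM) overlapped those of Nadsyn1 (26.47 to 34.27 TPM) and Naprt (38.84 to 49.62 TPM). The PIM1+/- range of Ido1 (3.93 to 10.27 TPM) included that of Afmid (8.08 to 8.89 TPM). Kynu, Qprt and Bst1, all at 0.21 TPM or less, and Nnmt at 0, could not be put in order among themselves.

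**Figure D5:**
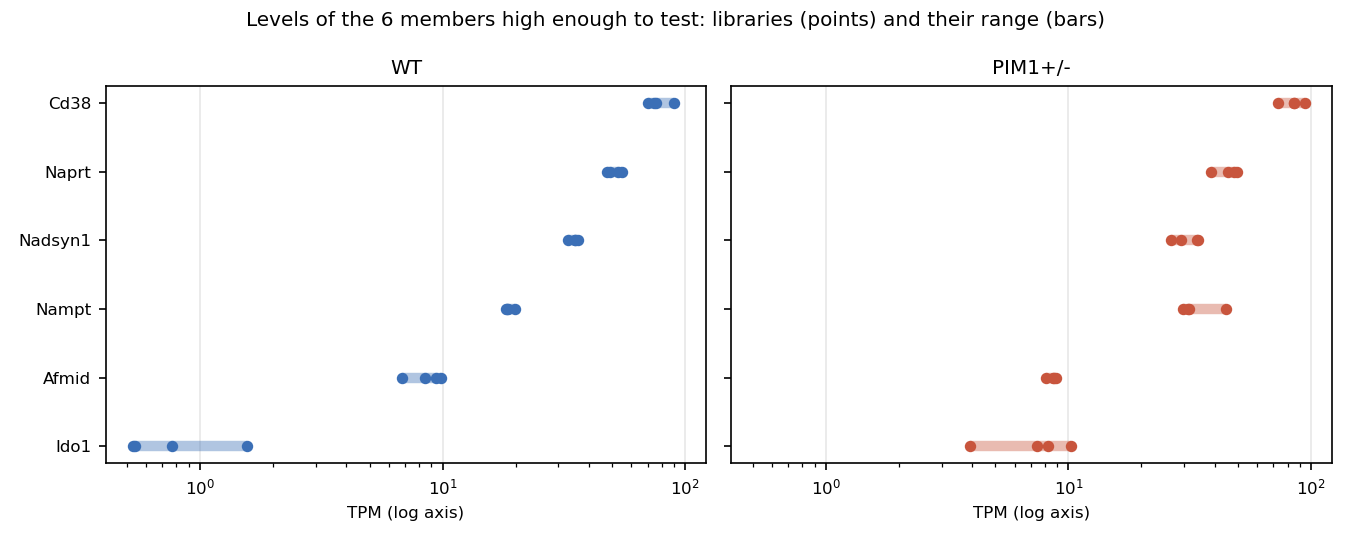
TPM (log horizontal axis) of the 6 tested genes in WT and PIM1+/- libraries, with points for libraries and bars for their range. The ranges are separate in WT, while in PIM1+/- libraries Nampt overlaps Nadsyn1 and Naprt, and Ido1 overlaps Afmid.

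PIM1+/- replicate 1 was at an edge of its group for several of these genes. It had the highest Ido1, Nampt, Bst1 and Afmid and the lowest Naprt and Nadsyn1 of the PIM1+/- libraries. Leaving it out kept the calls of Ido1 and Nampt, and it brought Naprt and Nadsyn1 nearer to 0.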

How the data were processed

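Colon intestinal epithelial cell RNA was sequenced in 4 WT and 4 PIM1+/- libraries. The deposited values were TPM per gene, made with RSEM per the series' design text. The submitters' processing notes name HISAT2, StringTie, edgeR and the build GRCm38.p6, without roles. Every value column was matched to a sample by its labelled genotype and number.

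The 12760 genes that reached 1 TPM in 4 or more libraries were compared on log2(TPM + 1) in limma (version 3.58.1, R 4.3.3), two-sided, with trended empirical Bayes variances and Benjamini-Hochberg adjustment over all of them (threshold 0.05). Genes under that filter got exact permutation tests over 70 arrangements. Coordinates are from GENCODE M21 on GRCm38, promoters from RefSeq. The fit was tested on simulated data. TPM sums to a fixed total, so changes in abundant transcripts shift other values.

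The members and lists were chosen with earlier results of these data known. From each pathway list the called genes, up to 4 by smallest p, are named, otherwise up to 2 by highest level. Slc7a5, Parp10, Parp11, Socs1, Ifngr1, Pnp2, Sirt1, Sirt2, Sirt6, Sirt7, Mat2a, Arnt, Il4i1, Slc6a19, C1qa and Lmod1 were named after their values were seen. So were Gzma, Ccl5, C1qb, C1qc, Krt8, Krt18, Krt19, Cldn7, Ptprc, Cd7 and Maoa. A few list genes and genes of like pattern are not reported here, and the list counts leave them out. No protein sequences were used here.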

Additional observations from a re-analysis of the deposited data

Results flagged for a closer look

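Each gene's 4 libraries of a genotype were searched for 1 far from the others by Dixon's test, which chance passes in about 1 of 20 groups. Nampt in PIM1+/- replicate 1 was at 44.52 TPM, and its gap to the next library was 0.887 of the group's range. For Kynu and Qprt the test has no force, since any library above 0 passes it when the other 3 are listed at 0. Kynu was at 0.05 TPM in PIM1+/- replicate 3. Qprt was at 0.04 TPM in WT replicate 2.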

How the results depend on the processing

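Ido1 kept its direction and call in 14 alternatives (log2 fold change 2.01 to 3.03, limma adjusted p 0.000498 to 0.012) and Nampt in 15 (0.68 to 0.87, 0.00037 to 0.0117). With a mean of at least 5 TPM required, Ido1 was not tested and 1 member was higher. Naprt, Nadsyn1, Afmid and Cd38 passed the threshold in none of their 15. The Afmid log2 fold change, near 0 throughout, was -0.0403 with upper quartile scaling, -0.10 with libraries rescaled to nuclear protein-coding genes and -0.0962 to 0.0634 without 1 library. That of Cd38 was -0.0015 with the rescaling. Kynu, Qprt and Bst1 kept their direction in 9 alternatives each. Of these 8 leave out a library, where 3 against 4 cannot give an exact permutation p under 0.0571, so they could not pass the threshold.

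Over all genes, the rescaling gave 704 higher and 2391 lower, and no filter on low values gave 773 and 666. Leaving out 1 library gave 746 to 1004 higher and 616 to 1054 lower. With the replicate block 760 genes were higher and 689 lower, and Ido1 (adjusted p = 0.012) and Nampt (0.0117) kept their calls. Among the pathway list genes named, Kyat1 (0.0619), Slc7a8 (0.0556), Ahcy (0.0863) and Ifngr1 (0.0904) lost theirs under it. So did the cell markers Krt19, Cldn7, Ptprc and Cd7. Same-numbered libraries did not deviate together (r of -0.136, 0.032, -0.033 and -0.071 over genes), and no library correlated best with its own number. These values cannot show whether the samples were paired by design. Without a filter on low values Kyat1 (0.0702), Slc7a5 (0.113), Slc7a8 (0.0824), Ahcy (0.0588) and Socs1 (0.117) were not called. Hoxa13 (0.07945) and Hoxd13 (0.0848) were not called there either, so Hoxb13 (0.0299) was the only posterior Hox gene called. The cell markers Krt8, Krt18, Krt19, Cldn7, Ptprc and Cd7 also lost their calls without the filter. Without the trend Slc7a5 (0.0512), Ahcy (0.0792) and Ifngr1 (0.0687) were not called, nor were the markers Krt19 and Cldn7. With the rescaling Socs1 (0.0538) was not called, while Kyat3 (-0.49, 0.0461) and Tph1 (-0.55, 0.034) were. The cause of these changes was not tested. Read depth is unknown, so changes of genes near 0 TPM were not detectable.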

Other observations

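Of 3 genes under the filter on low values in the list of tryptophan fates and uptake, 2 had groups that did not overlap, as had 4.25% of the 13945 genes under the filter that were above 0 in some library and 9.84% of those with a mean of at least 0.2 TPM. For both the two-sided exact permutation p was 0.0286, the smallest that 4 libraries against 4 can give. In the limma fit without the filter neither was called (adjusted p 0.0612 and 0.113). Il4i1, an amino acid oxidase that acts on tryptophan among other substrates, measured 0.56, 0.78, 0.98 and 0.37 TPM in WT and 0.16, 0.17, 0.19 and 0.30 TPM in the PIM1+/- libraries (both in replicate order). Slc6a19, a transporter of neutral amino acids, measured 0.30, 0.26, 0.28 and 0.30 TPM in WT and 0.67, 0.37, 0.85 and 0.50 TPM in the PIM1+/- libraries (both in replicate order). The oxidase was thus lower and the transporter higher in every PIM1+/- library, at levels under 1 TPM.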
